A study of Mus musculus with 2 samples.

Results

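The genes of the collagen chains were followed across the nucleus types of 2 mouse calf muscles. Members were all genes whose symbol is Col, a number, the letter a and a number, with 20 or more unique molecular identifiers (UMIs, counted RNA molecules) over all nuclei. Of 32285 genes in the count table, 44 had such a symbol and 39 passed the minimum. The other 5 were Col17a1 with 19 UMIs, Col2a1, Col9a2 and Col10a1 with 5 each, and Col6a4 with 1. The study profiled single nuclei of the gastrocnemius and of the plantaris, 1 library per muscle, from C57BL/6 mice aged 12 weeks. No treatment is named for either muscle, and the sources used here give neither the number nor the sex of the mice. Nuclei were freed from minced muscle with beads, stained with PI, sorted and captured on the 10x Chromium system with 3' chemistry.

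Collagens are extracellular proteins built from chains wound into a triple helix, each chain from its own gene. Fibrillar collagens such as types I, III and V carry tension in tendon and connective tissue, type IV forms the sheet-like network of the basement membrane around fibres and vessels, and type VI forms beaded filaments beside it. Other chains sit on fibril surfaces (the FACIT collagens), cross the cell membrane, or anchor basement membranes. In muscle the connective tissue is made largely by resident mesenchymal cells, while the ends and the synapse of a muscle fibre hold collagens of their own.

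The libraries held 7372 gastrocnemius and 9149 plantaris nuclei after filtering and removal of called doublets. Before these steps, the median nucleus had 2260 and 2714 UMIs, and members had 22384 and 50442 UMIs in all. A set of 17 barcode sequences occurred in both libraries. Nuclei were clustered with the collagen genes left out of the clustering genes and of the naming markers. Each type name stands for clusters whose markers are like those of that type. The myotendinous junction cluster was named from 6 of 12 markers (Ankrd1, Tigd4, Adamts20, Slc24a2, Itga7 and Fras1), and the neuromuscular junction cluster from 13 of 13. The endothelial cluster showed 10 of 10 vascular markers and 4 of 6 lymphatic ones, and the smooth muscle cluster 6 of 8 of its own and 4 of 8 pericyte markers. Clusters 0, 4 and 9 held most gastrocnemius myonuclei, and clusters 1, 3, 5 and 7 most plantaris myonuclei. Clusters 6, 14, 19 and 23 stayed unnamed, with 480, 64, 12 and 10 gastrocnemius nuclei and 569, 185, 30 and 13 plantaris nuclei, and enter no comparison of types.

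Levels are UMIs per 1000000 UMIs of a nucleus type in a library (CPM). Paired values give gastrocnemius first and plantaris second throughout. Types were compared within each library, and a member was called when the CPM ratio reached 4-fold, or 2-fold between the mesenchymal types, in the same direction in both libraries. With 1 library per muscle there is no replicate and no test. The 95% intervals are exact and cover counting error only. Levels are compared within a gene and not between genes.

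Among named types collagen transcripts made up the largest shares of UMIs in mesenchymal, tendon and neuromuscular junction nuclei. Bmper-type mesenchymal nuclei gave 0.790% and 0.858%, and the Dpp4/Pi16 type 0.495% and 0.498%. Tenocytes, the cells of tendon, gave 0.506% and 0.621%, muscle stem cells 0.306% and 0.324%, and mural nuclei, the pericytes and smooth muscle of vessels, 0.267% and 0.366%. In ordinary myonuclei the shares were 0.0209% and 0.0301%. At the myotendinous junction, the fibre ends, they were 0.365% and 0.295%, and at the neuromuscular junction, the synapse, 0.527% and 0.670%. Both kinds of junction nuclei thus lay far above ordinary myonuclei in each library, with most of the collagen UMIs from few genes. At the myotendinous junction Col22a1 made up 51.7% and 54.9% of them and Col24a1 34.7% and 26%. At the neuromuscular junction Col19a1 made up 40.5% and 47.5% and Col4a3 31.7% and 20.5%.

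The highest level of a gene fell in the same type in both libraries for 27 of the 39 members, counting types with more than 3 UMIs of it. Bmper-type nuclei were highest for 9: Col4a1, Col5a2, Col5a3, Col6a1, Col6a2, Col6a3, Col6a6, Col15a1 and Col27a1. Neuromuscular junction nuclei were highest for 7 (Col4a3, Col4a4, Col13a1, Col19a1, Col23a1, Col25a1 and Col26a1), and tenocytes for 5 (Col1a1, Col1a2, Col11a1, Col11a2 and Col12a1). Myotendinous junction nuclei led for Col22a1 and Col24a1, Dpp4/Pi16 nuclei for Col3a1 and Col14a1, smooth muscle for Col4a6, and ordinary myonuclei for Col9a1. For Col9a1 in gastrocnemius ordinary myonuclei were the only type with more than 3 UMIs, so that library gives no ranking. In plantaris Col9a1 stood at 27.1 CPM in ordinary myonuclei and at 24.2 CPM at the neuromuscular junction. For the other 12 the highest type differed, or 1 library had no type with enough UMIs. Among the 27, leads over the next type ran from narrow to wide. Col5a2 led by 1.13- and 1.08-fold and Col4a3 by 14.3- and 15.6-fold. Col4a4 and Col23a1 led by 1.16- and 1.09-fold in gastrocnemius, and Col3a1 and Col26a1 by 1.10- and 1.26-fold in plantaris. The tally was not made over all genes.

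**Figure D1:**
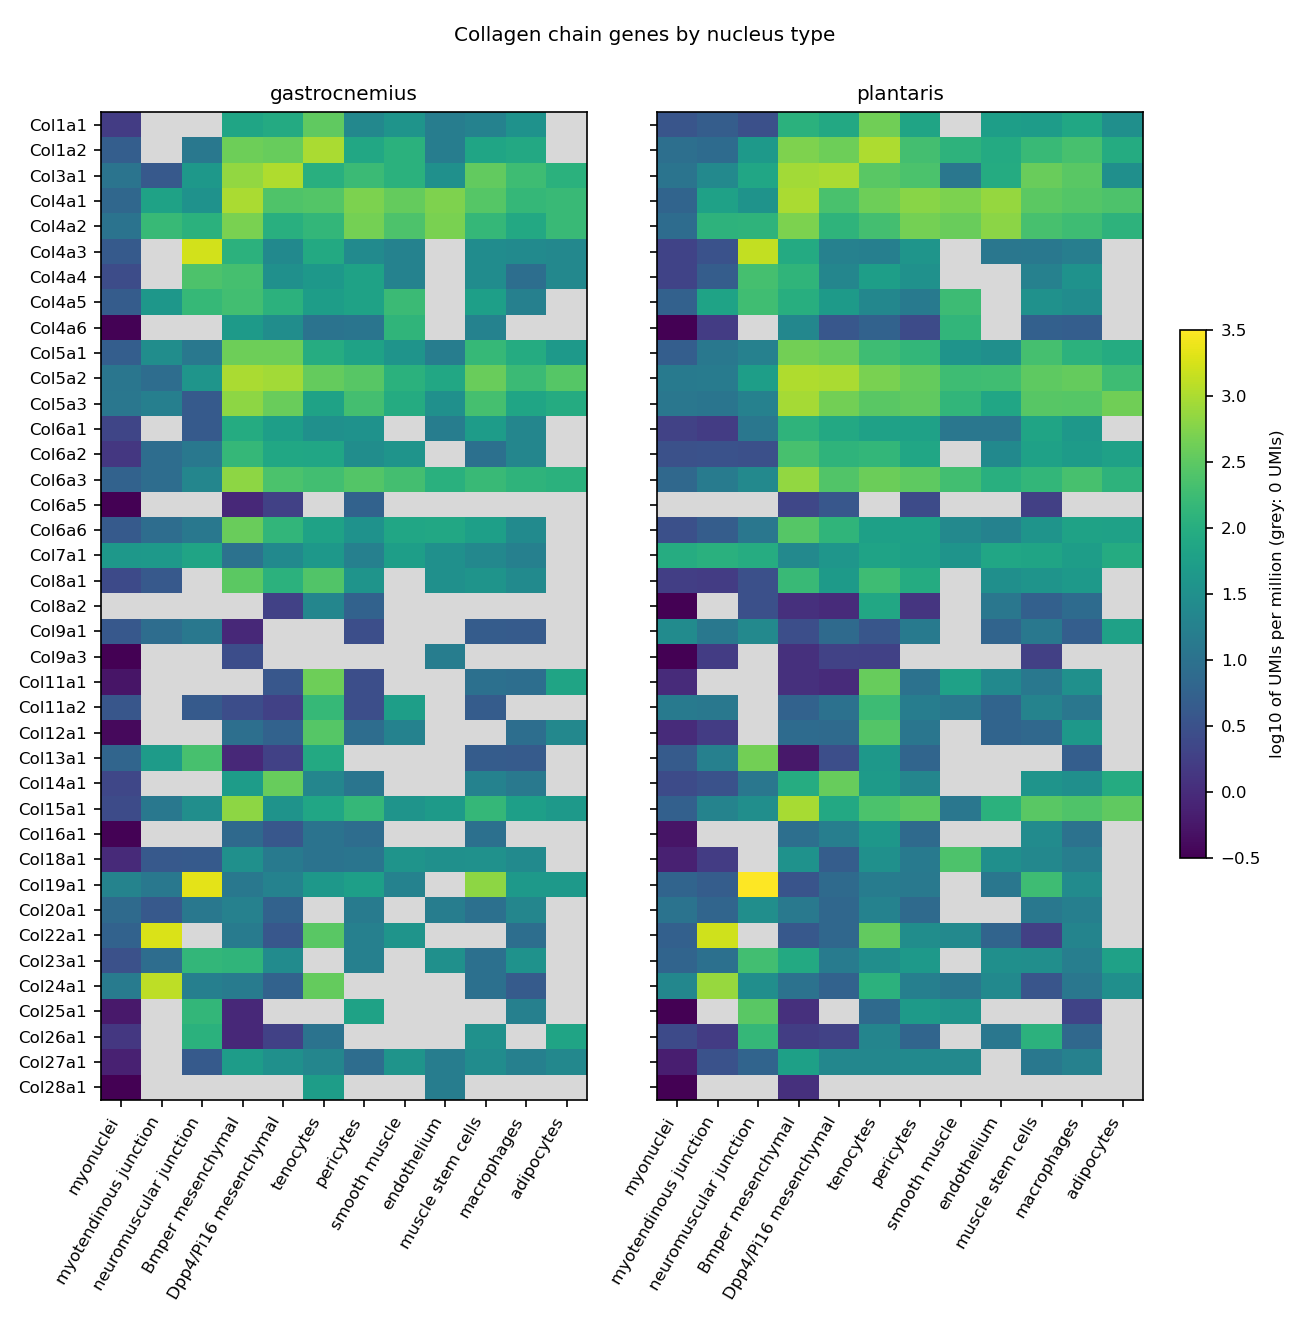
Level of each of the 39 collagen genes in each of 12 nucleus types in gastrocnemius and plantaris, as log10 of CPM, with grey for 0 UMIs. Col22a1 and Col24a1 are highest in the myotendinous junction column, and Col4a3 and Col19a1 in the neuromuscular junction column, of both libraries.

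Both mesenchymal types together, the fibroblast-like cells of muscle, had 24 of 34 comparable members at 4-fold or more the myonuclear level. Over all genes the same rule called 16.9%. The median log2 ratio of the members compared was 5.19 and 5.24, against 0.45 and 0.41 over all genes compared. Scaling by median ratios in place of totals shifted the ratios by 0.51 and 0.49.

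All members of types I, III and V were among them (Col1a1, Col1a2, Col3a1, Col5a1, Col5a2 and Col5a3). Col3a1, the chain of type III fibrils, stood at 827 and 912 CPM in mesenchymal nuclei and at 10.9 and 10.8 CPM in myonuclei. Its log2 ratios were 6.24 (interval 6.01 to 6.49) and 6.40 (6.20 to 6.60). Col5a2, a type V chain that joins type I fibrils, stood at 949 and 1040 CPM against 11.9 and 14.2 CPM. In both libraries the mesenchymal levels of these genes were the high ones, and the intervals did not overlap. Col1a2, a chain of type I, stood at 399.7 and 488 CPM against 5.02 and 9.0 CPM, and Col1a1, its partner, at 77.2 and 103 CPM against 1.61 and 3.64 CPM. Col5a1 and Col5a3, the other type V chains, had log2 ratios of 6.39 and 6.41 and of 5.55 and 5.93. Col27a1, a fibrillar chain known from cartilage, was at 45.1 and 46 CPM against 0.737 and 0.688 CPM.

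The beaded type VI chains ran the same way. Col6a3, the longest chain, stood at 521 and 540.4 CPM in mesenchymal nuclei and at 5.63 and 7.23 CPM in myonuclei, with log2 ratios of 6.53 and 6.22. Col6a6, an alternative to it, stood at 304 and 221 CPM against 4.29 and 3.05 CPM. Col6a1 had log2 ratios of 5.21 and 5.81, and Col6a2 of 6.44 and 5.88. These 4 of the 5 type VI members were called, and Col6a5 was too sparse to compare.

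Col9a1, a FACIT chain known from the surface of cartilage fibrils, was the only member called in the other direction. It stood at 0.618 and 4.67 CPM in mesenchymal nuclei, from 1 and 13 UMIs, and at 4.02 and 27.1 CPM in myonuclei. The log2 ratios were -2.70 (interval -8.03 to -0.17) and -2.54 (-3.46 to -1.75), and the rule called 2.98% of all genes in that direction. The call rests on the gastrocnemius library, whose ratio was -1.07 with collagen genes among the variable genes, -0.05 after thinning to 1000 UMIs a nucleus and -1.59 with the mean CPM of nuclei, and it was lost under each. Col7a1, the anchoring fibril chain, missed the rule, at 14.8 and 30.2 CPM in mesenchymal nuclei and 42.3 and 93.8 CPM in myonuclei. Its log2 ratios were -1.51 (interval -2.16 to -0.92) and -1.64 (-1.97 to -1.32). With median-ratio scaling 3 members were called in this direction (Col7a1, Col9a1 and Col13a1), and with free RNA subtracted 2 (Col7a1 and Col9a1).

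Of the genes that modify, fold and cross-link collagen, 19 of 30 compared were called higher in mesenchymal nuclei and 0 lower. They included Lox, Loxl1, Loxl2 and Loxl3, which cross-link fibrils, Bmp1, which cleaves procollagen, and Serpinh1, the collagen chaperone. Of 19 genes for collagen binding and remodelling, 15 were called higher, among them Mmp2 and Mmp14, matrix proteases. Dcn and Lum, proteoglycans that bind fibrils, were also among the naming markers, so their direction was set by the naming.

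Between the mesenchymal types, 10 of 30 comparable members were at least 2-fold higher in the Bmper type and 1 in the Dpp4/Pi16 type. Over all genes 4.69% and 3.1% were called in these directions. Col15a1, a multiplexin of basement membranes, stood at 651 and 937.5 CPM in Bmper nuclei and at 36.2 and 83.4 CPM in Dpp4/Pi16 nuclei. The log2 ratios were 4.17 (interval 3.51 to 4.91) and 3.49 (3.18 to 3.82). Col15a1 and Col4a1 are also known as markers of this type, though neither was used to name it.

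Of the 10, 4 were type IV chains. Col4a1 stood at 989 and 966 CPM in the Bmper type and at 249.8 and 222 CPM in the Dpp4/Pi16 type, and Col4a2 at 504 and 512 CPM against 107 and 126 CPM. Col4a3 had log2 ratios of 2.24 and 2.26, and Col4a4 of 2.67 and 2.63. All 4 chains were high in the Bmper type in each library. The others were Col18a1, a multiplexin, Col23a1, Col8a1, Col6a3 and Col6a6. Col23a1, a transmembrane collagen, stood at 129 and 83.9 CPM against 26.7 and 14.5 CPM, and Col8a1, a network chain of vessel walls, at 309.8 and 162 CPM against 116 and 48.5 CPM. Col6a3 had log2 ratios of 1.48 and 1.43, and Col6a6 of 1.53 and 1.06. For Col18a1 the Dpp4/Pi16 counts were 7 and 5 UMIs, and the log2 ratios were 1.26 (interval 0.07 to 2.68) and 2.82 (1.52 to 4.50).

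Col14a1, a FACIT chain of fibril surfaces, ran the other way. It stood at 377.5 and 375 CPM in Dpp4/Pi16 nuclei and at 52.1 and 94.2 CPM in Bmper nuclei. The log2 ratios of Bmper over Dpp4/Pi16 were -2.86 (interval -3.31 to -2.43) and -1.99 (-2.27 to -1.73). Fibrillar chains gave smaller ratios. Col5a1 had -0.03 and 0.27, Col5a2 0.17 and 0.11, Col1a2 0.13 and 0.39 and Col3a1 -0.58 and -0.14 on the log2 scale. Among 28 synthesis genes Plod1, Colgalt2 and Adamts3 were higher in the Bmper type, and Pcolce2, an enhancer of procollagen cleavage, in the Dpp4/Pi16 type.

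**Figure D2:**
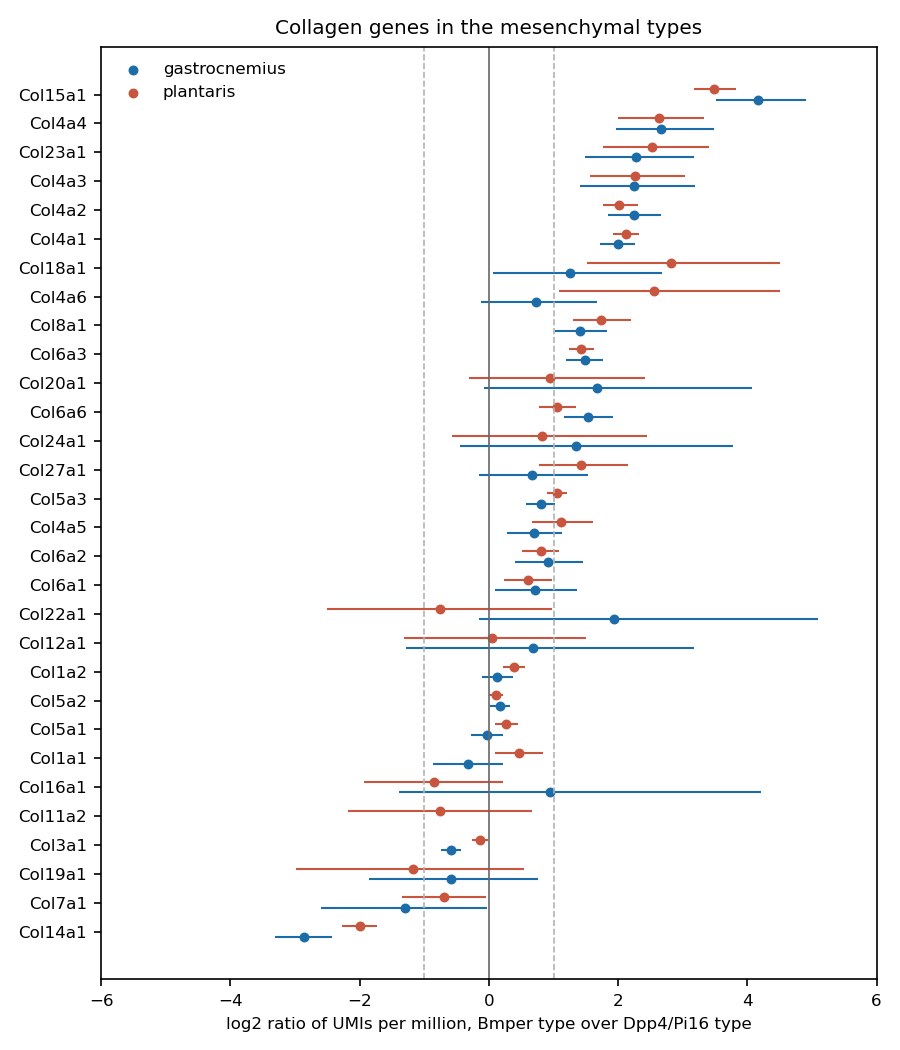
Log2 ratio of CPM in Bmper-type over Dpp4/Pi16-type mesenchymal nuclei for the 30 members compared, with 95% counting intervals and one colour per library; dashed lines mark 2-fold. Col15a1 lies at 4.17 and 3.49, to the right, and Col14a1 at -2.86 and -1.99, to the left.

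Tenocyte nuclei numbered 56 and 161. Against mesenchymal nuclei 7 of 33 members were called higher and 1 lower, where all genes gave 1.4% and 0.419%. Col11a1, a fibrillar chain that starts fibrils in cartilage, stood at 417 and 372.5 CPM in tenocytes and at 1.24 and 1.08 CPM in mesenchymal nuclei, from 2 and 3 UMIs there. On the log2 scale the ratios were 8.40 (interval 6.45 to 11.49) and 8.43 (6.86 to 10.72). Its partner Col11a2 stood at 149.7 and 173 CPM against 2.47 and 7.19 CPM. Both type XI chains were far higher in tenocytes in each library.

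Col12a1, a FACIT chain known from tendon, stood at 278 and 271 CPM in tenocytes against 8.03 and 7.905 CPM in mesenchymal nuclei. Col1a1 stood at 331.5 and 431 CPM against 77.2 and 103 CPM, with log2 ratios of 2.10 (interval 1.48 to 2.68) and 2.06 (1.81 to 2.32). Col1a2 was likewise highest in tenocytes, at 984 and 1003 CPM, with log2 ratios of 1.30 and 1.04, under the 4-fold rule. Type I chains were thus highest in tenocytes, whereas Col3a1 was lower there, at 107 and 305 CPM against 827 and 912 CPM. Col14a1 was the member called lower, at 21.4 and 47 CPM against 157.5 and 198 CPM, from 2 and 25 UMIs in tenocytes.

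The other 3 members called higher in tenocytes, Col13a1, Col22a1 and Col24a1, were also high in a junction type. Col22a1 stood at 299 and 348 CPM in tenocytes, which is 15.9% and 21.5% of its myotendinous junction level. For Col24a1 the share was 27.8% and 15.4%, and for Col13a1 170.0% and 246%. The myotendinous markers that could be compared had a median of 4.65% and 10.7% and a highest of 916% and 487%, for Adamtsl1, and no member lay above that. Members highest at the myotendinous junction, as Col22a1 and Col24a1 were, could not lie above it. The lowest of these markers stood at 0% in both libraries. Ankrd1 and Slc24a2, among the 6 naming markers, had 0 UMIs in tenocytes of both. That allows up to 32.1 and 5.64 CPM at the limit of 3 counts, and the other markers are covered by the median and the highest only. The part of RNA from the junction in the tenocyte values was not tested. P3h2, a prolyl hydroxylase of collagen, stood at 449 and 465 CPM in tenocytes and 2.47 and 10.1 CPM in mesenchymal nuclei, and was called with Adamts3 among 30 synthesis genes. Against myonuclei 28 of 34 members were higher in tenocytes and 0 lower, where all genes gave 10.3% and 0.00752%. The 7 mesenchymal markers described below had a median of 19.2% and 26.2% of their mesenchymal level in tenocytes. Their highest was 58.2% and 66.9%. Of the 24 members called in mesenchymal nuclei, 6 exceeded it in both libraries: Col1a1, Col1a2, Col6a2, Col8a1, Col12a1 and Col16a1.

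At the neuromuscular junction, whose nuclei lie under the nerve ending and express the synapse genes, 12 of 33 members were at least 4-fold above other myonuclei and 0 were lower. The rule called 2.85% and 0.0689% of all genes. Junction nuclei numbered 101 and 86. The 12 comprised 5 type IV chains, the transmembrane collagens Col13a1, Col23a1 and Col25a1, and Col15a1, Col19a1, Col26a1 and Col27a1.

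Stretches upstream of the start sites of members high at a junction follow, to show the DNA beside the levels. They come from the RefSeq promoter table on build GRCm38.p6 and are written 5′ to 3′ on the strand of the gene. Capitals mark the E-box CANNTG, the core bound by myogenic bHLH factors, and the CCAAT box. The first is the interval of 71 bases between the divergent starts of Col4a4 and Col4a3, chr1:82586850-82586920, minus strand. The next are chr10:61979109-61979358 and chr1:24587473-24587687, both minus strand, and chr3:130180595-130180844, plus strand, at a start within the annotated gene. The last, for the myotendinous member Col24a1, is chr3:145292222-145292471, plus strand.
Col4a4: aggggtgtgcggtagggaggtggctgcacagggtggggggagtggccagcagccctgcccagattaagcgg
Col13a1: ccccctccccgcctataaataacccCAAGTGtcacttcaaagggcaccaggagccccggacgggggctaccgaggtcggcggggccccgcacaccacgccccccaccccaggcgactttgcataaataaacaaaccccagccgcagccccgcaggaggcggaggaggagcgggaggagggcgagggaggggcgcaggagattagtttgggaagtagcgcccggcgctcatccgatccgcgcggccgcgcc
Col19a1: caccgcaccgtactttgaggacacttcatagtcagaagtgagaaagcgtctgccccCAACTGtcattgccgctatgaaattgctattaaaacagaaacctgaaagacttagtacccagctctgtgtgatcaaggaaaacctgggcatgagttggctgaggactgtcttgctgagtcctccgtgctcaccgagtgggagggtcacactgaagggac
Col25a1: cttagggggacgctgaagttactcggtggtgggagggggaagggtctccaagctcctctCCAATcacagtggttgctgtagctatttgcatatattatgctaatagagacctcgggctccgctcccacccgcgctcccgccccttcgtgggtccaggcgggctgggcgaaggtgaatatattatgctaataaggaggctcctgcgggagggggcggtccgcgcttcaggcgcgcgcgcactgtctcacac
Col24a1: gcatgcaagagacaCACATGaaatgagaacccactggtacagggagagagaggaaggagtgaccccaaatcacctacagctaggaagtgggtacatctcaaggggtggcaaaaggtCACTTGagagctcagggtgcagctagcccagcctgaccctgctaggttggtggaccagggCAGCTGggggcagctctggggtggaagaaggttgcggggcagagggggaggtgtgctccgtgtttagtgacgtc

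The stretch between Col4a4 and Col4a3 held neither motif. Of the 39 members 31 had a window in the table, 34 windows in all. In the 250 bases upstream, searched on both strands, CANNTG occurred in 17 of 34 member windows and in 66.2% of all 32851 windows. CCAAT occurred in 11 of 34 and in 33.8% of all, and the N-box CCGGAA, known from synaptic promoters, in 0 of 34 and in 12% of all. A match is a description and not a binding site, and no match says only that these letters are not in this window.

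Col4a3, a type IV chain known from kidney and lung, stood at 1669 and 1371 CPM in junction nuclei and at 4.35 and 2.02 CPM in other myonuclei. The log2 ratios were 8.58 (interval 8.20 to 8.98) and 9.41 (8.95 to 9.91), and UMIs of it were found in 56 of 101 and 70 of 86 junction nuclei. Col4a4, its divergent neighbour, stood at 239 and 212 CPM against 2.68 and 2.02 CPM, and Col4a5, which assembles with both, at 149 and 185 CPM against 4.62 and 5.46 CPM. All 3 chains of this type IV network were thus higher at the synapse in each library. Col4a6 had 0 UMIs in junction nuclei of both libraries, which allows up to 12.8 and 9.08 CPM at the limit of 3 counts used for a count of 0. Col4a1 and Col4a2, the common chains, had log2 ratios of 2.32 and 2.54 for Col4a1 and 3.44 and 3.98 for Col4a2.

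Col19a1, a FACIT chain known from synapses in the brain, stood at 2134 and 3184 CPM at the junction and at 19.4 and 6.195 CPM in other myonuclei. The log2 ratios were 6.78 (interval 6.57 to 7.0) and 9.01 (8.74 to 9.28), with UMIs in 63 of 101 and 70 of 86 junction nuclei. Plantaris had both the higher junction level and the lower level in other myonuclei.

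Among the transmembrane collagens Col13a1, known to hold nerve and fibre together at the synapse, stood at 218 and 445 CPM against 6.36 and 4.38 CPM, with log2 ratios of 5.10 (interval 4.58 to 5.60) and 6.67 (6.28 to 7.06). Col23a1 stood at 141 and 194 CPM against 3.15 and 6.10 CPM. Col25a1, known for its part in motor innervation, stood at 141 and 303 CPM against 0.603 and 0.246 CPM, with log2 ratios of 7.87 (interval 6.77 to 9.12) and 10.27 (9.0 to 11.92). Its UMIs came from few nuclei. In gastrocnemius 33 UMIs lay in 2 nuclei, with 28 in 1 of them, and in plantaris 100 UMIs lay in 11 nuclei, with at most 23 in 1. The gastrocnemius value thus rests mostly on 1 nucleus, which the counting interval does not cover.

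Col26a1 stood at 115 and 148 CPM against 1.41 and 2.51 CPM. The calls of Col15a1 and Col27a1 rest on few junction UMIs, 7 and 10 for the first and 1 and 2 for the second. The log2 ratios of Col27a1 were 2.53 (interval -2.89 to 5.32) and 3.14 (-0.04 to 5.26). The 7 mesenchymal markers described below had a median of 4.20% and 3.05% of their mesenchymal level at the junction and a highest of 8.33% and 5.69%. Col15a1 stood at 6.62% and 4.87% of its own mesenchymal level and Col4a1 at 4.56% and 5.26%, not above the highest marker in both libraries. The calls of Col4a1, Col15a1 and Col27a1 were lost when depth was thinned, when nuclei were weighted equally or when free RNA was subtracted. Colq, the collagen-like tail of acetylcholinesterase and a naming marker, stood at 811 and 499 CPM against 1.675 and 0.688 CPM. P3h2, Plod2 and Pcolce2 were called among 26 synthesis genes.

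**Figure D3:**
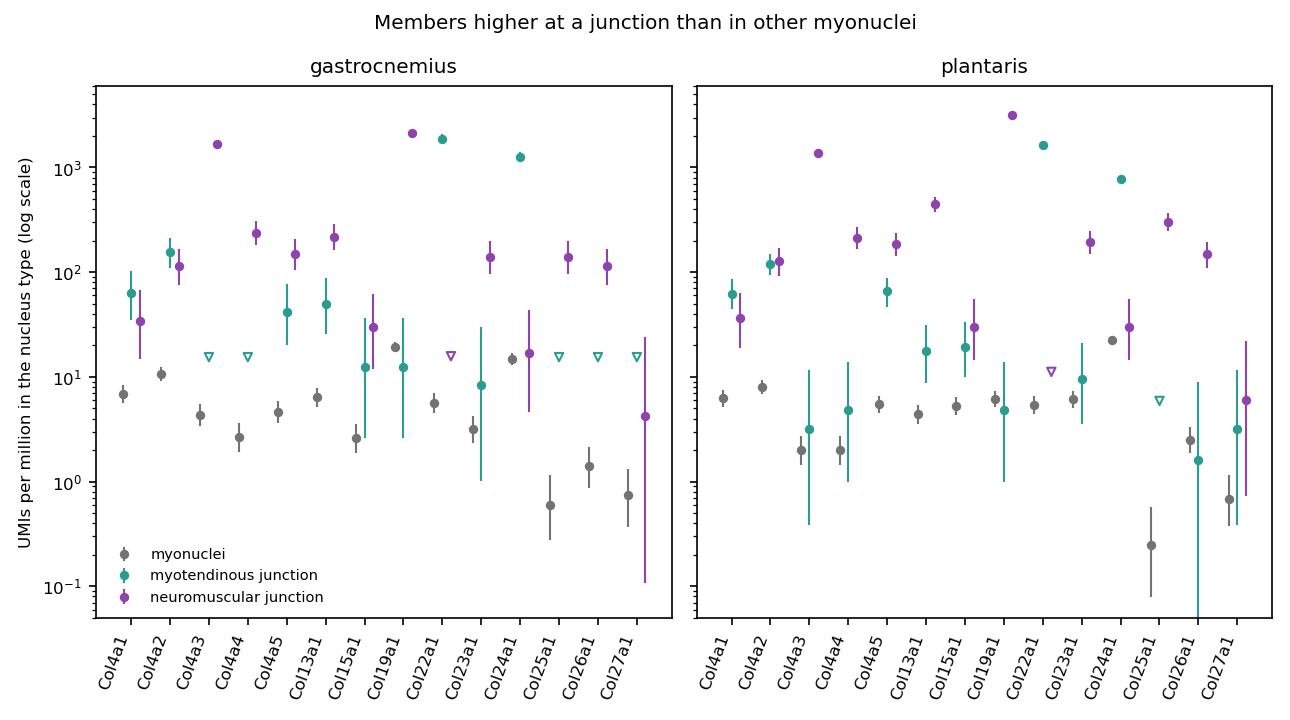
Level in CPM (log scale) of the 14 members higher at either junction, in ordinary myonuclei, myotendinous junction nuclei and neuromuscular junction nuclei of each library, with 95% counting intervals; open triangles mark the upper end of that interval where 0 UMIs were found. Col22a1 stands at 1887 and 1623 and Col24a1 at 1268 and 768 at the myotendinous junction, and Col19a1 at 2134 and 3184 at the neuromuscular junction.

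At the myotendinous junction, where fibres attach to tendon, 6 of 32 members were at least 4-fold above other myonuclei and 0 were lower, against 2.45% and 0.161% of all genes. The nuclei numbered 79 and 163. Col22a1, a FACIT chain known from tissue junctions, stood at 1887 and 1623 CPM there and at 5.63 and 5.41 CPM in other myonuclei. The log2 ratios were 8.39 (interval 8.05 to 8.74) and 8.23 (7.94 to 8.53), with UMIs in 62 of 79 and 139 of 163 junction nuclei. At the neuromuscular junction it had 0 UMIs in both libraries, with the same limit of 12.8 and 9.08 CPM. Col24a1, a fibrillar chain, stood at 1268 and 768 CPM against 14.7 and 22.4 CPM, with log2 ratios of 6.43 (interval 6.17 to 6.68) and 5.10 (4.91 to 5.29). Both genes are known markers of this junction, and neither was used to name the cluster.

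Of the type IV chains, Col4a2 stood at 155 and 119.8 CPM there against 10.65 and 8.06 CPM, Col4a1 at 62.8 and 62.3 CPM against 6.83 and 6.245 CPM, and Col4a5 at 41.8 and 65.5 CPM against 4.62 and 5.46 CPM. Col4a3 had 0 and 2 UMIs in these nuclei and Col4a4 0 and 3. Col4a2 and Col4a5 were thus called at both junctions, and Col4a3 and Col4a4 at the synapse. Col4a1 was called at both too, but its synapse call was lost under the alternatives given above. Set against each other, the neuromuscular nuclei were higher for 7 of 20 members (Col4a3, Col4a4, Col13a1, Col19a1, Col23a1, Col25a1 and Col26a1) and lower for 2, Col22a1 and Col24a1. All genes gave 2.1% and 1.89%. Col13a1 was called at the myotendinous junction too, at 50.2 and 17.6 CPM from 12 and 11 UMIs, but not when nuclei were weighted equally or when collagen genes entered the clustering. P3h2 stood at 92 and 76.7 CPM against 2.75 and 3.20 CPM, the only one of 26 synthesis genes called. Itga11, a collagen-binding integrin chain, and Antxr2, a collagen VI receptor, were called among 15 remodelling genes.

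Type IV genes lie in 3 head-to-head pairs. Col4a1 and Col4a2 start on opposite strands of chromosome 8 with an overlap of 22 bases in GENCODE M21, and their CPM over the 12 named types had a Pearson r of 0.88 and 0.92. For Col4a3 and Col4a4 on chromosome 1, r was 0.93 and 0.85, and for Col4a5 and Col4a6 on chromosome X, with 1308 bases between their starts, 0.67 and 0.60. Types of 1 library share its free RNA, and each type weighs the same however few its nuclei, so these values are descriptions. Col4a3 stood at 1669 and 1371 CPM at the synapse and at 117 and 87.9 CPM in the next type, so its r leans on the synapse. Col4a6 parted from Col4a5 at the synapse, where it had 0 UMIs, and was highest in smooth muscle nuclei. It stood there at 129.9 and 135 CPM, from 7 and 11 UMIs, and at 11.5 and 2.59 CPM in pericytes. The log2 ratios of pericytes over smooth muscle were -3.50 (interval -5.72 to -1.52) and -5.70 (-8.92 to -3.51). It was the 1 of 26 members called lower, with 0 higher, where all genes gave 1.1% and 0.563%. Smooth muscle nuclei numbered 19 and 22.

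Other chains that assemble together had lower values of r in part. For Col5a1 and Col5a2 r was 0.87 and 0.95, for Col1a1 and Col1a2 0.94 and 0.74, for Col6a1 and Col6a2 0.52 and 0.58, and for Col11a1 and Col11a2 0.34 and 0.72. Few UMIs in a small type can lower r. Col11a2 stood at 55.7 CPM from 3 UMIs in gastrocnemius smooth muscle, where Col11a1 had 0, yet both chains were highest in tenocytes in both libraries. Among neighbours on chromosome 1, Col3a1 and Col5a2, 24614 bases apart, had 0.96 and 0.82, and Col9a1 and Col19a1, 9205 bases apart, had 0.58 and 0.26. In the last pair Col19a1 was highest at the synapse. Col9a1 was highest in ordinary myonuclei in plantaris, among types with more than 3 of its UMIs, and could not be ranked in gastrocnemius.

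In vessels the common type IV chains were high in both cell kinds. Col4a1 stood at 525 and 737 CPM in endothelium and 490.3 and 601 CPM in mural nuclei, and Col4a2 at 493 and 638 CPM and 431 and 457 CPM. Neither reached 4-fold between them. Col5a3, a type V chain, was the 1 member called, at 187 and 312 CPM in mural nuclei and 31.8 and 74.3 CPM in endothelium, where it had 2 and 12 UMIs. Its log2 ratios were 2.55 (interval 0.65 to 5.63) and 2.07 (1.24 to 3.04). The count became 2 with Col5a1 (collagen genes among the variable genes, mean CPM of nuclei, or median-ratio scaling) or with Col15a1 (free RNA subtracted). The main comparison gave 1 higher and 0 lower of 26 members, where all genes gave 1.24% and 2.73%. Against myonuclei 26 of 35 members were higher in mural nuclei and 0 lower, where all genes gave 11.7% and 0.0818%. In endothelium 11 of 32 were higher and 0 lower, where all genes gave 9.03% and 0.0532%. Among the 11, Col4a1 had 33 and 119 UMIs in endothelium and Col4a2 31 and 103, but other calls rest on few. Col6a1 had 1 and 2 UMIs, with log2 ratios of 2.89 (interval -2.46 to 5.47) and 2.65 (-0.44 to 4.6). Col1a1 had 1 UMI in gastrocnemius, with 3.31 (-2.06 to 5.92). The intervals of these 2 genes reached below 0, in both libraries for Col6a1 and in gastrocnemius for Col1a1. Col18a1, source of the fragment endostatin, stood at 31.8 and 30.95 CPM in endothelium, from 2 and 5 UMIs, and at 37.1 and 245.5 CPM in smooth muscle, from 2 and 20.

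RNA of mesenchymal cells was also found in other types. The 7 mesenchymal markers Pdgfra, Dcn, Abca8a, Scara5, Bicc1, Mfap5 and Lum had a median of 18.6% and 32.2% of their mesenchymal level in macrophages, which should lack them. It was 23.3% and 28% in muscle stem cells, 19.2% and 26.2% in tenocytes and 14% and 23.8% in pericytes. In endothelium it was 12.2% and 11.4%, and in ordinary myonuclei 1.37% and 1.41%. A collagen gene at or below such shares cannot be told apart from free RNA here.

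Of the 24 members called in mesenchymal nuclei, 6 exceeded the highest of these markers in endothelium in both libraries: Col1a1, Col4a1, Col4a2, Col6a3, Col18a1 and Col23a1. Col4a2 stood at 131% and 173% of its mesenchymal level there and Col4a1 at 70% and 107%. Col1a1 rested on 1 and 9 UMIs, and Col18a1 and Col23a1 on 2 and 5 each. In pericytes 8 did so, among them Col4a2 at 123% and 126%, Col4a1 at 68.3% and 88.4% and Col6a3 at 51.8% and 60.7%. Col3a1 in pericytes, at 20.5% and 25.8%, lay within the range of the markers, as did Col5a2, at 30.3% and 34.8%. In macrophages 3 exceeded it, Col1a1, Col12a1 and Col18a1.

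**Figure D4:**
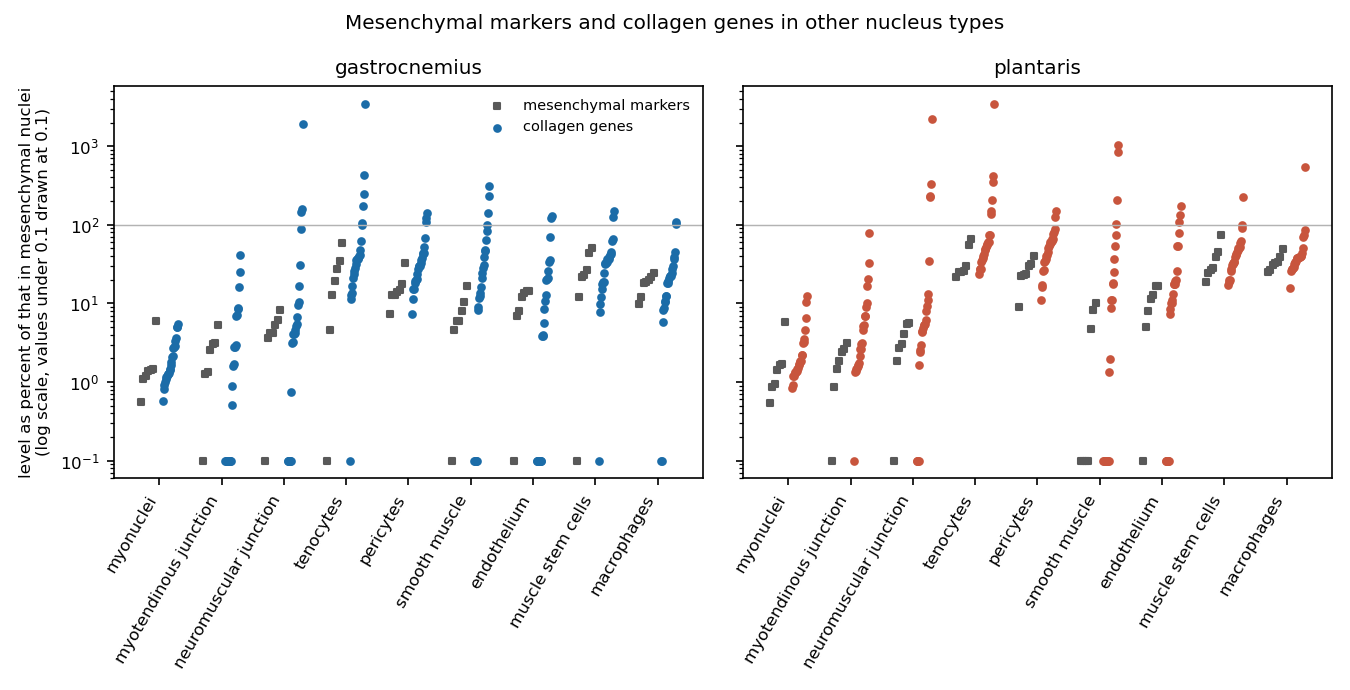
Level in 9 other nucleus types as percent of that in mesenchymal nuclei (log scale), for 7 mesenchymal markers (squares) and the 24 collagen genes called higher in mesenchymal nuclei than in myonuclei (circles), per library; values under 0.1 are drawn at 0.1. In macrophages the squares have a median of 18.6% and 32.2% and most circles lie among them, and in ordinary myonuclei no circle exceeds the highest square in both libraries.

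Muscle stem cell nuclei, 138 and 257, had 24 of 33 members at 4-fold or more the myonuclear level and 0 lower, where all genes gave 10.3% and 0.0905%. Of the 24, 21 were also called in mesenchymal nuclei. The stem cell cluster showed 7 of 10 of its own markers and 4 of 10 mesenchymal ones. The count was 14 after an estimate of free RNA was subtracted and 15 with finer clustering. That finer clustering gave an unnamed cluster of 21 and 47 nuclei with 8 of 10 mesenchymal and 5 of 10 stem cell markers. Its median doublet score was 0.129, against 0.021 in the nuclei then named stem cells. The part of mixed nuclei in the shared calls was not tested. Relative to the mesenchymal level Col16a1, a FACIT chain, and Col18a1 exceeded the highest marker in both libraries, from 2 and 15 UMIs of Col16a1 and 7 and 13 of Col18a1. Col3a1, at 42.5% and 43%, lay within the range of the markers.

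The 3 called in stem cells and not in mesenchymal nuclei were Col11a1, Col19a1 and Col26a1. Col19a1 stood at 657 and 180.0 CPM in stem cells, from 140 and 101 UMIs, against 14.8 and 5.03 CPM in mesenchymal nuclei and 19.4 and 6.195 CPM in myonuclei. The log2 ratios to myonuclei were 5.08 (interval 4.78 to 5.38) and 4.86 (4.47 to 5.25). UMIs of it were found in 68 of 138 and 55 of 257 stem cell nuclei, and in 4 of 153 and 12 of 350 macrophages, at median depths of 1053.5 and 1325 UMIs in stem cells and 931 and 1242 in macrophages. Its level was 30.8% and 5.65% of that at the synapse. The synapse markers that could be compared, 12 and 13 in number, had a median of 3.09% and 4.43% there and a highest of 84.3% and 145%, for Chrnb1, and no member lay above that. Members highest at the synapse, as Col19a1 was, could not lie above the plantaris value. The part of RNA from the synapse in the stem cell values was not tested. Col26a1 stood at 32.8 and 118 CPM in stem cells, from 7 and 66 UMIs, with log2 ratios of 4.55 (interval 3.07 to 5.83) and 5.55 (5.0 to 6.11). Both remained called after free RNA was subtracted. Col11a1 had 2 and 7 UMIs. Col25a1 had 0 UMIs in stem cells of both libraries, and outside the synapse stood at 63.2 and 47.9 CPM in pericytes, from 22 and 37 UMIs.

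Between the muscles a member was called within a type at 2-fold. In ordinary myonuclei the members called in plantaris were 7 higher and 2 lower of 32, against 8.84% and 2.55% of all genes. Each muscle is 1 library, so muscle and library cannot be told apart. Over 9 types 49 pairs of a member and a type were called. By type, the rule called 5.39% to 13.5% of all genes higher in plantaris and 2.24% to 8.4% lower. No share over all genes was computed for the pooled pairs or under the alternatives. The count was 26 with finer clustering, 28 after thinning and 87 with a minimum of 1 UMI. Under all 9 alternatives 7 pairs kept their call: Col9a1, Col11a2 and Col19a1 in myonuclei, Col19a1 and Col26a1 in stem cells, Col15a1 in Dpp4/Pi16 nuclei and Col5a3 in tenocytes.

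Col9a1 stood at 4.02 and 27.1 CPM in myonuclei, from 60 and 552 UMIs, a log2 ratio of plantaris over gastrocnemius of 2.76 (2.37 to 3.16). Col11a2 stood at 3.75 and 13.5 CPM, with 1.85 (1.43 to 2.29), and Col7a1 at 42.3 and 93.8 CPM, with 1.15 (1.02 to 1.28) and by far the most UMIs, 631 and 1908. These were higher in plantaris beyond counting error. Col19a1 and Col4a3, both high at the synapse, ran the other way. Col19a1 stood at 19.4 and 6.195 CPM, with -1.64 (-1.96 to -1.34), and Col4a3 at 4.35 and 2.02 CPM, with -1.11 (-1.71 to -0.53). The synapse markers had a median of 0.863% and 0.348% of their synapse level in ordinary myonuclei, and a highest of 38.1% and 31.5%. Of 8 members high at the synapse 0 lay above that highest in both libraries. A member at least 4-fold higher at the synapse could not lie above it, so this comparison cannot decide the question. The part of RNA from the synapse in these 2 differences was not tested. Col1a1, Col6a2, Col12a1 and Col15a1 were also called higher, at no more than 5.26 CPM in either library.

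Nuclei were also grouped by their most abundant transcript among Myh1, Myh2, Myh4 and Myh7, the myosin genes that define fibre types. In Myh4 nuclei, the fastest fibres, 4416 and 4037 in number, Col9a1 stood at 4.23 and 34.2 CPM, a log2 ratio of 3.01 (2.62 to 3.43). Col11a2 had 2.04 (1.61 to 2.50), Col7a1 1.37 (1.24 to 1.51) and Col19a1 -1.64 (-1.98 to -1.31). Of these 4 genes Col19a1 had the same ratio within this fibre class as over all myonuclei to 2 decimals, and the other three had larger ones. In Myh1 nuclei, 129 and 722 in number, Col7a1 stood at 31.3 and 28.7 CPM, with -0.13 (-1.01 to 0.89). In Myh2 nuclei, 174 and 560 in number, it stood at 6.02 and 24.4 CPM from 3 and 47 UMIs. Within plantaris Col7a1 was highest in Myh4 nuclei, at 115 CPM. Col24a1 was highest there in Myh1 nuclei, at 33.5 CPM against 21.6 CPM in Myh4 and 10.9 CPM in Myh2 nuclei. Gastrocnemius did not show this order. Col24a1 stood there at 15.03 CPM in Myh4, 5.222 CPM in Myh1 and 6.019 CPM in Myh2 nuclei, from 206, 2 and 3 UMIs. In Myh1 nuclei its log2 ratio of plantaris over gastrocnemius was 2.68 (0.79 to 5.75).

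By cluster the plantaris levels were uneven. In plantaris clusters 5 (led by Ryr3), 1 (Il1rapl2 and Mss51), 3 (Atf3 and Nr4a3) and 7 (with Myh2 among its leading genes), Col9a1 stood at 44.9, 32.7, 20.7 and 4.12 CPM. In gastrocnemius clusters 0, 4 and 9 it stood at 4.30, 4.75 and 1.39 CPM. Col7a1 stood at 136, 126, 60.3 and 29.9 CPM in the same plantaris clusters and at 47, 49.6 and 28.5 CPM in the gastrocnemius ones. Both genes had the same order over these plantaris clusters, and Col9a1 was among the 10 leading genes of clusters 1 and 5 although it was left out of the clustering. Col19a1 stood at 30.8, 9.05 and 11.8 CPM in gastrocnemius clusters 0, 4 and 9, highest in the first.

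Col7a1 was called higher in plantaris in 5 of the 9 types. In myotendinous junction nuclei it stood at 46 and 109 CPM, with 1.24 (0.31 to 2.31), and in Bmper nuclei at 10.05 and 24.55 CPM, with 1.29 (0.31 to 2.39). Mural nuclei gave 1.30 (0.25 to 2.51) and stem cells 1.57 (0.22 to 3.27). Macrophages, read as a measure of free RNA and not among the 9 types, gave 17.5 and 52.4 CPM, with 1.58 (0.14 to 3.51). After free RNA was subtracted Col7a1 remained called in myonuclei and at the myotendinous junction, and no longer in Bmper, mural and stem cell nuclei.

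Col15a1 was called higher in plantaris in myonuclei, Dpp4/Pi16 nuclei, tenocytes, mural nuclei, endothelium and stem cells. After free RNA was subtracted it remained called in Dpp4/Pi16 nuclei, tenocytes, mural nuclei and stem cells. That subtraction was scaled on myonuclear markers in these types, so it does not measure mesenchymal RNA in them. In macrophages it stood at 56.9 and 251 CPM, with 2.14 (1.34 to 3.07). Among macrophages the members called in plantaris were 14 higher and 1 lower of 27, against 13.3% and 3.55% of all genes. In mural nuclei the members called in plantaris were 10 higher and 2 lower of 26, against 10% and 2.28% of all genes. In tenocytes the members called in plantaris were 7 higher and 1 lower of 25, against 13.5% and 4.34% of all genes, and in stem cells the members called in plantaris were 6 higher and 1 lower of 20, against 8.87% and 3.33% of all genes. The mesenchymal markers moved the same way, with medians of 18.6% and 32.2% of the mesenchymal level in macrophages and 14% and 23.8% in pericytes. The part of free RNA in these differences was not tested. At resolution 2 an unnamed cluster of 44 and 174 nuclei showed 7 of 10 mesenchymal and 3 of 8 macrophage markers. Its median doublet score was 0.121, against 0.05 in the macrophage cluster and 0.067 in the pericyte cluster at resolution 1. The part of mixed nuclei in the macrophage and mural values was not tested either.

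In Bmper nuclei the members called in plantaris were 1 higher and 3 lower of 29, against 5.39% and 2.24% of all genes. In Dpp4/Pi16 nuclei the members called in plantaris were 1 higher and 2 lower of 21, against 6.54% and 2.38% of all genes. Col4a5 stood at 118 and 47.5 CPM in Dpp4/Pi16 nuclei, with -1.32 (-1.89 to -0.75), and Col4a6 at 47.5 and 22.8 CPM in Bmper nuclei, with -1.06 (-1.69 to -0.43). Type I, III and V chains were not called in either mesenchymal type.

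At the neuromuscular junction the members called in plantaris were 2 higher and 0 lower of 13, against 8.89% and 4.13% of all genes. Col13a1 had 1.03 (0.56 to 1.52) and Col25a1 1.10 (0.52 to 1.72), the latter resting on few nuclei. At the myotendinous junction the members called in plantaris were 1 higher and 1 lower of 7, against 10.6% and 3.62% of all genes. Col7a1 was the higher one and Col13a1 the lower, with -1.51 (-2.84 to -0.21) for Col13a1. Col19a1 was lower in plantaris in stem cells, with -1.87 (-2.25 to -1.49), in mural nuclei, with -2.16 (-3.41 to -1.01), and in Bmper nuclei, with -1.90 (-3.57 to -0.43), as in myonuclei. At the synapse its log2 ratio was 0.58 (0.42 to 0.73). In tenocytes Col24a1 stood at 353 and 118.5 CPM, with -1.57 (-2.20 to -0.92), and Col5a3 at 64.2 and 301 CPM, with 2.23 (1.08 to 3.70). In endothelium the members called in plantaris were 2 higher and 0 lower of 5, against 11.6% and 8.4% of all genes.

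**Figure D5:**
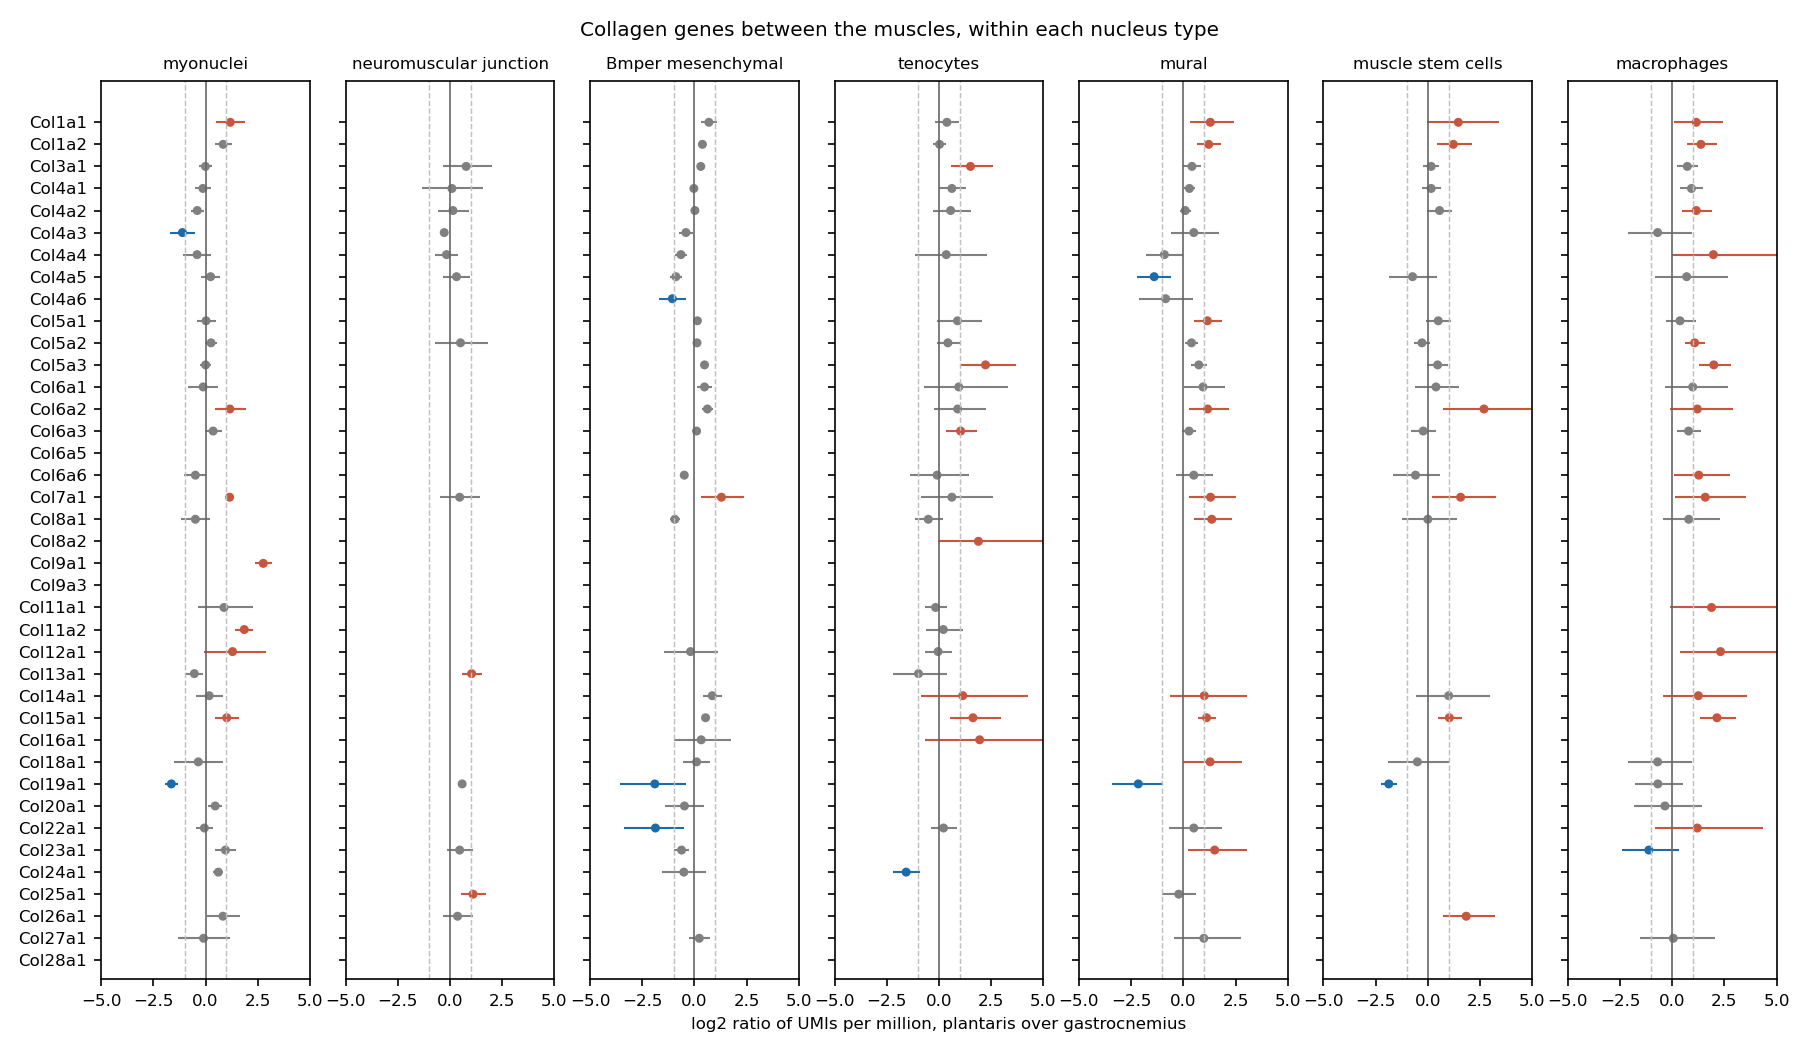
Log2 ratio of CPM in plantaris over gastrocnemius for the members compared in 7 nucleus types, with 95% counting intervals cut at the axis ends; red marks 2-fold or more higher in plantaris, blue 2-fold or more lower, grey the rest, and dashed lines mark 2-fold. Col9a1 in myonuclei lies at 2.76, Col19a1 is blue in myonuclei, Bmper, mural and stem cell nuclei, and macrophages show 14 red members.

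Few counts were left for the remaining members. Col8a2, a hexagonal network chain with 93 UMIs, was among the 3 members furthest apart between the muscles in tenocytes, at 21.4 and 79 CPM from 2 and 42 UMIs, with 1.89 (-0.06 to 4.98). Col28a1 with 26 UMIs, Col9a3 with 23 and Col6a5 with 22 were too sparse to place. Col20a1, a FACIT chain with 516 UMIs, stood at 7.64 and 10.5 CPM in ordinary myonuclei and 14.2 and 10.8 CPM in mesenchymal nuclei.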

How the data were processed

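Whole UMI counts per gene and nucleus, not normalised, were deposited by the authors with a table of each barcode's library. Per the submitters' processing notes they came from Cell Ranger 6.0.1 on mm10. The annotation, the strand setting and any counting of introns were not stated there. The members, lists, comparisons and alternatives were chosen with earlier results of these data known.

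A nucleus needed 200 genes and less than 5% of its UMIs from mitochondria, which left out 6 of 16530. Doublets were scored per library in scanpy 1.11.5, which marked 3 more. These were removed, which left 16521, but 3 are too few for the caller to have worked, so doublets remain. Counts were scaled to 10000 per nucleus and logged, and 2000 variable genes (from those in at least 10 nuclei, collagens left out) gave 30 principal components, 15 neighbours and, by leidenalg 0.10.2 at resolution 1, 24 clusters. Naming took 3 markers, each with at least 10 UMIs, a level no lower than 20% of the top cluster's, and 4-fold over the median cluster. For myonuclei the level was 60%. A rival list reaching 80% left a cluster unnamed.

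UMIs were summed per type and library and divided by the type's total. The libraries held 19048595 and 29248275 UMIs. Comparisons needed 20 UMIs over both groups. Intervals at 95% are exact Poisson (levels) and conditional binomial (ratios). A floor of 3 counts per library replaced 0 in ratios. The call rule was tried on simulated counts with counting error only and with changes set beyond the call fold. Spread between nuclei was not simulated, so the trial does not cover calls that rest on few nuclei. Free RNA was taken as the profile summed over all nuclei of a library. Its share was scaled on mesenchymal markers in myonuclei and junction nuclei, and on myonuclear markers in the other types. Lists held 32 synthesis and 20 remodelling genes. By rule, members with 100 or more UMIs (35 of 39) and Col13a1, Col22a1, Col24a1 and Col25a1 could be given with values, and between muscles up to 3 each way per type. Grouping by Myh needed 3 Myh UMIs and no tie. Positions are from GENCODE M21. Col4a1 overlaps Col4a2, Col18a1 overlaps Slc19a1 and Col9a3 overlaps Tcfl5 on opposite strands. Python 3.11.15, numpy 2.4.6, scipy 1.17.1 and pandas 2.3.3 were used.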

Additional observations from a re-analysis of the deposited data

Results flagged for a closer look

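Col8a1, a network chain of vessel walls, had called differences between the muscles in opposite directions in 2 nucleus types, and neither sign held under all alternatives. Its log2 ratio of plantaris over gastrocnemius was 1.36 in mural nuclei, from 13 and 71 UMIs, and -1.26 in Dpp4/Pi16 mesenchymal nuclei, from 61 and 50 UMIs. The mural value was -0.08 without the 5% of nuclei with the highest doublet scores. The Dpp4/Pi16 value was 0.70 with collagen genes among the variable genes and 0.42 at resolution 2. The difference between the types was not tested, since each muscle is 1 library.

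Col13a1 was higher in plantaris at the neuromuscular junction, with a log2 ratio of 1.03, and lower at the myotendinous junction, with -1.51, from 12 and 11 UMIs. That difference was not tested either.

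Col20a1, a FACIT chain, was higher in unnamed cluster 19 than in any named type of the same library with UMIs of it. It stood at 260.9 CPM in gastrocnemius, from 5 UMIs in 12 nuclei, and at 78.15 CPM in plantaris, from 8 UMIs in 30 nuclei. Gm20754, Ntng1 and Hcn4 led the cluster.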

How the results depend on the processing

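Of 80 counts recomputed under 9 alternatives, 66 stayed within 1.5 times. Of 1964 values of single genes 1659 stayed, 301 moved and 4 changed sign. The 1 member higher in myonuclei than in mesenchymal nuclei became 0 with collagen genes among the variable genes, 0 after thinning to 1000 UMIs per nucleus, 0 with the mean CPM of nuclei, 3 with median-ratio scaling and 2 with free RNA subtracted. The 1 member that differed between mural and endothelial nuclei became 2 with collagen genes among the variable genes, 2 with the mean CPM, 2 with median-ratio scaling and 2 with free RNA subtracted. The 24 members higher in muscle stem cells became 15 at resolution 2 and 14 with free RNA subtracted. The 49 pairs that differed between muscles became 26 at resolution 2, 28 after thinning and 87 with a minimum of 1 UMI. In Dpp4/Pi16 nuclei the log2 ratio of Col8a1 between muscles turned from -1.26 to 0.70 with collagen genes among the variable genes and 0.42 at resolution 2. In mural nuclei it turned from 1.36 to -0.08 without the 5% of nuclei with the highest doublet scores, and that of Col14a1 from 1.0 to -0.94 with the mean CPM. The cause was not tested.

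Thinning left out 1084 gastrocnemius and 1064 plantaris nuclei, and resolution 2 gave no endothelial value. Depth limits the small types: 0 UMIs in gastrocnemius smooth muscle allow up to 55.7 CPM. No paired analysis was possible because there is 1 library per muscle and nothing in the labels ties the muscles to the same animals.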
